A study of Mus musculus with 6 samples.

Results

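The p53 targets and growth-arrest genes Mdm2, Ccng1, Trp53inp1, Sesn1, Gadd45a, Gadd45b, Gadd45g, Btg1 and Btg2 were read in early thymic progenitors with and without Tcf1, a DNA-binding factor of the T lineage, on Mouse Genome 430 2.0 arrays of Affymetrix. They were chosen by name, together with Trp53, as p53 and its damage and growth-arrest targets, and every probe set that the platform annotation assigns to 1 of these symbols was taken. Of the 10 listed genes 9 had at least 1 probe set, 22 probe sets in all out of 45037 tested, and these 9 stand among 18193 genes with a probe set. Trp53, the gene of p53 itself, had no probe set assigned to it in the annotation used here and was not analysed here. The cells came from C57Bl/6 mice of 10 weeks and were thymocytes sorted for kit and CD44 and against CD25 and lineage markers, with 3 arrays from Tcf1-/- and 3 from Tcf1-/+ animals. The sample titles give the control genotype as Tcf1-/+, while another label field calls the same arrays wild type, so the controls may carry 1 inactive allele. The number of animals behind an array is not stated, so p-values measure the spread between arrays. About 3 ng of total RNA from 1000 cells was amplified before hybridization.

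p53 is a transcription factor that is stabilized by DNA damage and other stress, and its targets halt the cell cycle, repair DNA, restrain growth signalling or start cell death. Mdm2 is both a target and the ubiquitin ligase that degrades p53, which closes a feedback loop. The GADD45 proteins are small stress-induced proteins that bind PCNA, the cyclin B1 kinase complex and the kinase Map3k4, and the BTG proteins recruit the CCR4-NOT deadenylase to messenger RNAs and restrain proliferation. In T-lineage cells p53 acts as a checkpoint while antigen receptor genes are being rearranged, and Btg1 and Btg2 are known for holding resting T cells in quiescence.

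Array Tcf1-/- replicate 2 stood apart from the other 5. Its correlation with them over all probe sets was between 0.870 and 0.893. The difference between the 3' and 5' control probe sets of Tfrc was 0.055 log2 units on it and between -1.08 and -0.62 on the others. For Gapdh the same difference did not set this array apart, at 2.78 on it and between 1.74 and 2.89 on the others. Mean Y-linked signal was low on Tcf1-/- replicate 1 and on Tcf1-/+ replicates 1 and 3, between 4.01 and 5.004, and between 8.42 and 9.39 on the other 3 arrays. The genotypes therefore held unequal numbers of arrays with high Y-linked signal, and results are also given within the arrays of low and of high signal. Each of these subsets leaves 1 array in a genotype, so values within them cannot show stability. The positive markers of the sort were above the background level of 5.21, which is the 95th percentile of 27 bacterial control probe sets. Ptprc, which encodes CD45, lay between 11.95 and 12.71 and Cd44 between 9.60 and 10.39 over the 6 arrays, and Kit lay at 7.45 on Tcf1-/- replicate 2 and between 9.60 and 10.80 on the others. Il2ra, the gene of CD25, a surface protein the sort selected against, was also well above background on all 6 arrays, between 9.22 and 10.97. Its RNA was thus not low in cells gated against the protein. The arrays read RNA and not surface protein, so they cannot show whether the gate held. Tcf7, the gene that encodes Tcf1, was not analysed here, so the genotypes were not checked on the targeted gene.

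The start-site windows of 4 members are shown because Gadd45g and Btg1 had the lowest unadjusted p of the 9 genes on their brightest probe sets, Gadd45a had the largest difference, and the arrays of the p53 target Ccng1 did not overlap on 2 of its probe sets. Each window runs from 250 bases before to 50 bases after a RefSeq start on GRCm38.p6, 5′ to 3′ on the gene's strand. Capitals mark a p53 half-site in Gadd45a and Ccng1 and a TATA box in Gadd45g and Btg1.
Gadd45g (chr13:51846425-51846724, plus strand): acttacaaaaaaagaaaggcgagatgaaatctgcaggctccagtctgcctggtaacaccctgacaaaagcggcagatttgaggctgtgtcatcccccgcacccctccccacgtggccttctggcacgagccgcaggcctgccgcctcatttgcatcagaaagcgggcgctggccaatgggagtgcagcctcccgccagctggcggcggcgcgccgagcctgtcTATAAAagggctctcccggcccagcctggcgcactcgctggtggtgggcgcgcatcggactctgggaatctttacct
Btg1 (chr10:96616751-96617050, plus strand): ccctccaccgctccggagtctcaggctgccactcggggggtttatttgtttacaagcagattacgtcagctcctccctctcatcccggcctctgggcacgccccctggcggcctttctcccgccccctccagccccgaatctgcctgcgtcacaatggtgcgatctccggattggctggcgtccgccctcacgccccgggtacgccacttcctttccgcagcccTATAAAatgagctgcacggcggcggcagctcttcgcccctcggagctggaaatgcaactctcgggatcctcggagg
Gadd45a (chr6:67037358-67037657, minus strand): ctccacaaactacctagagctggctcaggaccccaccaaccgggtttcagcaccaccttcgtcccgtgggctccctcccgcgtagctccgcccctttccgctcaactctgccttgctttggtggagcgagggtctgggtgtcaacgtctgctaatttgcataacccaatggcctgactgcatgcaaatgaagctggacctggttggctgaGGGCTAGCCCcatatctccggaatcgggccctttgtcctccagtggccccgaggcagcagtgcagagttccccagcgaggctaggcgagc
Ccng1 (chr11:40755237-40755536, minus strand): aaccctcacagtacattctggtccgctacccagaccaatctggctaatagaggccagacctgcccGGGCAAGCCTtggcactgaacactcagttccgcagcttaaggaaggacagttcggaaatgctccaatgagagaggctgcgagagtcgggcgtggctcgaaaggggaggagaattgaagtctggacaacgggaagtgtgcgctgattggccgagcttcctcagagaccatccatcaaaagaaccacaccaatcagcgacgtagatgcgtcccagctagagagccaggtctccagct
Windows were found for 8 of the 9 measured genes, 9 windows in all, with a pair of starts for Sesn1. On either strand, the p53 half-site was matched in 4 of the 9 windows, those of Gadd45a, Ccng1, Mdm2 and 1 start of Sesn1, and in 8.36% of all 32851 windows. The half-site is its own reverse complement, so a match counts for both strands. The TATA box TATAAA was matched in 3 windows, those of Gadd45b, Gadd45g and Btg1, and in 13.6% of all windows. The TCF/LEF motif, searched on both strands as CTTTG followed by 2 bases that are each A or T, was matched in the Mdm2 window alone among the 9, and in 16.9% of all windows. These motifs did not overlap in the 9 windows. A match is a run of letters and not a bound site, and known p53 sites of Mdm2 and Gadd45a lie in introns, outside these windows.

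In the comparison of genotypes, Btg1 and Gadd45g had means about 2-fold higher in Tcf1-/- progenitors with no overlap between the arrays, Gadd45a and Btg2 had higher means with overlapping arrays, and Sesn1 had a lower mean on its brightest probe set. None of these differences passed the adjusted threshold. The limma fit, adjusted over all probe sets at 0.05, called 0 of the 22 member probe sets, as it called 0.0% of all probe sets, and 0.407 was the smallest adjusted p among the 22. Of the members, 4 probe sets had a higher mean in Tcf1-/- with an unadjusted p under 0.05, where 2.97% of all probe sets met this, and 0 had a lower mean with such a p, where 3.51% did. These 4 were the Gadd45g probe set, a pair of Btg1 probe sets and 1 of Ccng1. The arrays of the genotypes did not overlap for 5 member probe sets that were higher in Tcf1-/-, against 6.51% of all probe sets, and for 1 that was lower, against 5.27%. In sorted cells, a higher share of cells that express a gene and more RNA per cell cannot be told apart.

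**Figure D1:**
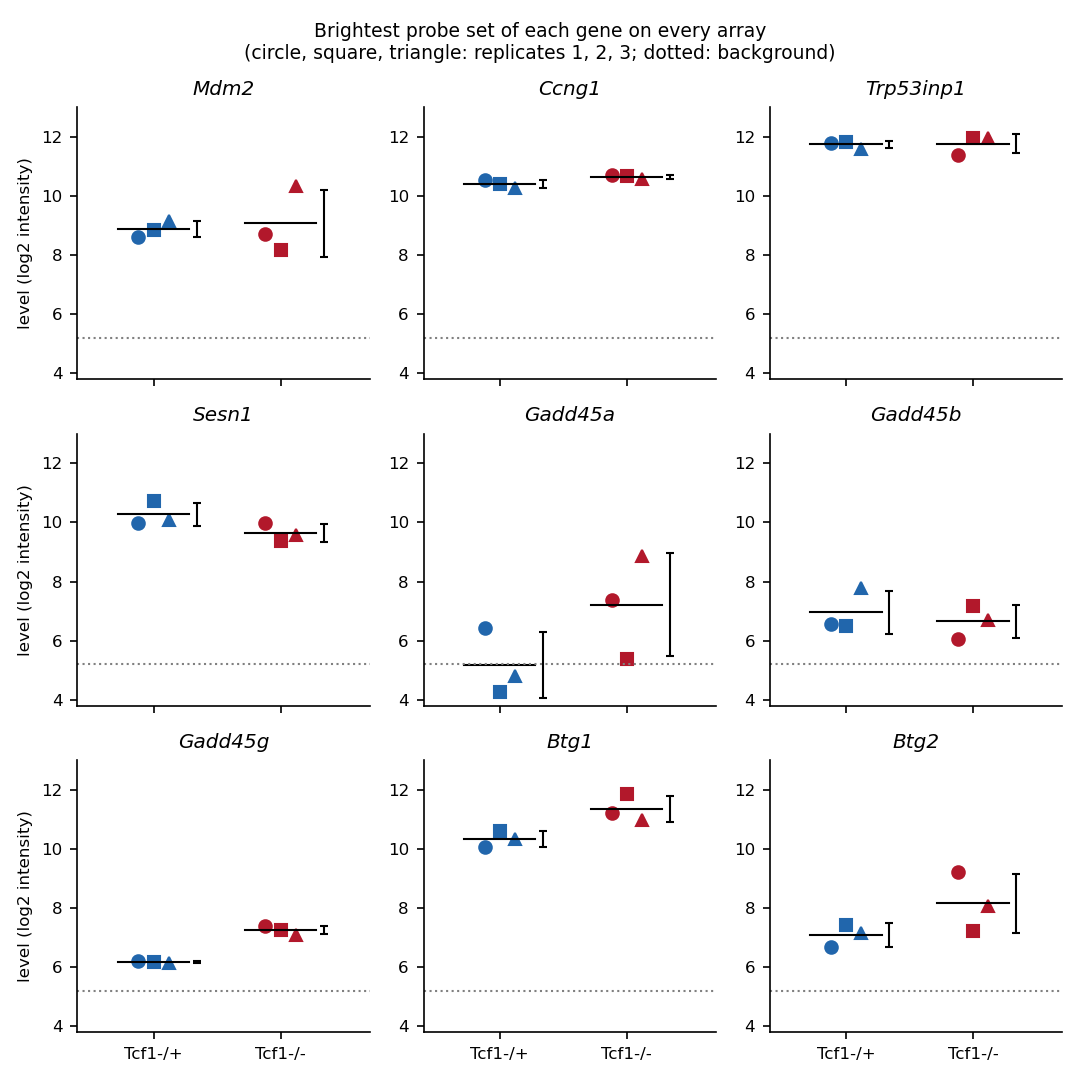
Log2 level of the brightest probe set of each of the 9 genes (y axis) on the 3 Tcf1-/+ arrays (blue) and the 3 Tcf1-/- arrays (red), with the mean as a line, the SD as a bar and the background level of 5.21 dotted. The red points of Gadd45g, Btg1 and Ccng1 all lie above the blue ones, those of Sesn1 lie below, and for Gadd45a 2 of the 3 blue points lie under background.

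Counted as genes, each by its brightest probe set on average, 7 of the 9 members had higher and 2 had lower means in Tcf1-/-, where 54.3% of all genes had higher means. The median difference of the 9 genes was 0.24 log2 units, against 0.04 over all 18193 genes. Gadd45g and Btg1 were the 2 genes at an unadjusted limma p under 0.05 with a higher mean, where 3.38% of all genes met this, and 0 members met it with a lower mean, where 3.4% did. Without Tcf1-/- replicate 2 the count was 4, with Gadd45a and Btg2 added, and without Tcf1-/+ replicate 1 it was 1, Gadd45g. Gadd45g, Btg1 and Ccng1 did not overlap between genotypes with higher Tcf1-/- levels, against 7.22% of all genes, and Sesn1 did not overlap with lower levels, against 4.94%. All 9 genes had a mean above background, and 8 of the 9 were above it on every array. The exception was Gadd45a. The members were chosen with results of these arrays known, and the counts are a description.

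Within the feedback loop, Mdm2 had no common direction over its probe sets. On its brightest probe set, 1427718_a_at, Mdm2 lay at 8.69, 8.16 and 10.34 on Tcf1-/- replicates 1, 2 and 3 and at 8.60, 8.85 and 9.15 on the Tcf1-/+ arrays. The Tcf1-/- arrays included both the highest and the lowest of the 6 values. The difference, always Tcf1-/- minus Tcf1-/+, was 0.20 with a 95% confidence interval of -1.21 to 1.60. It was -0.49 on 1423605_a_at and -0.46 on 1457929_at, and the arrays overlapped on both. On these other Mdm2 probe sets Tcf1-/+ replicate 2 was the brightest array, at 9.51 and 9.44. Without Tcf1-/- replicate 3 the difference on the brightest probe set was -0.44, so its sign rests on that array.

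Ccng1 encodes cyclin G1, a p53 target that binds protein phosphatase 2A and Mdm2. On 1450016_at the Tcf1-/- arrays read 10.69, 10.68 and 10.55 and the Tcf1-/+ arrays 10.53, 10.41 and 10.26, a narrow separation without overlap. The Ccng1 difference there was 0.24 with an interval of -0.21 to 0.69 (limma adjusted p = 0.900). On the dimmer probe set 1450017_at the arrays lay at 6.82, 6.85 and 6.56 in Tcf1-/- and at 5.99, 5.62 and 6.02 in Tcf1-/+. The genotypes were apart there by more than the spread of either, with a Ccng1 difference of 0.87, an interval of 0.35 to 1.39 and a limma adjusted p of 0.538. The Tcf1-/+ mean on this probe set, 5.88, was above background but under the highest bacterial control, 5.95. The third Ccng1 probe set, 1420827_a_at, had the opposite sign at -0.32, with overlap, so the probe sets of Ccng1 disagreed in direction.

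Trp53inp1 encodes a stress-induced nuclear protein that takes part in p53 phosphorylation and autophagy. Its brightest probe set, 1416926_at, was at 11.38, 11.95 and 11.96 in Tcf1-/- and at 11.79, 11.82 and 11.60 in Tcf1-/+. The Trp53inp1 difference was 0.03 with an interval of -0.55 to 0.61, and the arrays overlapped. On 1416927_at the Trp53inp1 difference was 0.48, with an interval of -0.13 to 1.08, and Tcf1-/- replicates 2 and 3, at 10.08 and 10.06, stood above the other 4 arrays. Tcf1-/- replicate 1 was at 9.50 there, between the Tcf1-/+ values of 9.22 and 9.59.

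Sesn1 encodes sestrin 1, a p53 target that restrains the growth kinase mTORC1 through the GATOR2 complex. On 1433711_s_at it lay at 9.99, 9.38 and 9.56 in Tcf1-/- and at 9.99, 10.72 and 10.09 in Tcf1-/+. The highest Tcf1-/- array and the lowest Tcf1-/+ array, both replicate 1, differed by less than the rounding shown, so the separation is a bare one. The Sesn1 difference was -0.63 with an interval of -1.34 to 0.09 (limma adjusted p = 0.817), and it was -0.21 on 1438931_s_at and -1.06 on 1454699_at. On 1454699_at Tcf1-/- replicate 2 was at 5.39, near background, and the other 5 arrays lay between 7.26 and 8.24. Without that array the Sesn1 difference there was -0.37. The fourth Sesn1 probe set, 1444376_at, had the opposite sign at 0.62 from a Tcf1-/+ mean of 5.22, with 2 of the 3 Tcf1-/+ arrays below background. Probe sets whose names end in _s_at can detect transcripts of more than 1 gene. On the brightest Sesn1 probe set the difference was -0.06 within the arrays of low signal and -1.25 within those of high signal. It was -0.40 without Tcf1-/+ replicate 2, and the part of sex in it was not tested.

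Of the GADD45 genes, Gadd45a had the widest spread. It was measured by 1 probe set, 1449519_at, which read 7.37, 5.40 and 8.87 in Tcf1-/- and 6.43, 4.27 and 4.82 in Tcf1-/+. Tcf1-/- replicates 1 and 3 were above all controls, replicate 2 lay below the highest control, and 2 of the 3 Tcf1-/+ arrays were under background. The Gadd45a means were 7.21 ± 1.75 (SD, n = 3) and 5.17 ± 1.12 (SD, n = 3), a difference of 2.04 with an interval of -0.38 to 4.46 and a limma adjusted p of 0.827. Because the Tcf1-/+ mean is below background, the size of this difference is not well measured. Without Tcf1-/- replicate 3 the Gadd45a difference was 1.21, and without Tcf1-/- replicate 2 it was 2.95.

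Gadd45b, which NF-kappaB and TGF-beta signalling induce, showed no common direction over 3 probe sets. On 1449773_s_at it was at 6.07, 7.17 and 6.71 in Tcf1-/- and at 6.58, 6.50 and 7.79 in Tcf1-/+, a difference of -0.30 with an interval of -1.43 to 0.82. The differences on 1420197_at and 1450971_at were 0.13 and -0.08. The Gadd45b arrays overlapped on all 3 probe sets, and the widest interval, on 1450971_at, ran from -2.22 to 2.05. On that probe set the Tcf1-/+ arrays alone ran from 5.03 to 8.12.

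Gadd45g, a cytokine-induced family member that supports p38 signalling in T helper cells, had the lowest unadjusted p of the 22 probe sets. Its probe set 1453851_a_at read 7.39, 7.27 and 7.10 in Tcf1-/- and 6.22, 6.19 and 6.16 in Tcf1-/+. The Tcf1-/+ values were above background but near the highest bacterial control, 5.95, so the fold given below is less well measured. Every Tcf1-/- array was above every Tcf1-/+ array, and the gap between them exceeded the range within either genotype. The means were 7.25 ± 0.145 (SD, n = 3) and 6.19 ± 0.029 (SD, n = 3), a Gadd45g difference of 1.06 with an interval of 0.62 to 1.51, or 2.09-fold. Its unadjusted limma p was 0.00114, rank 123 of 45037 probe sets, and its adjusted p was 0.407. That p depends on the fit. It was 0.00755 in limma with the replicate number as a block. With a trended robust variance in limma it was 0.0171, adjusted 0.726, and the p of Btg1 was lower, at 0.0124. The Gadd45g difference lay between 1.00 and 1.14 when any 1 array was left out. It was 1.20 and 0.99 within the arrays of low and of high Y-linked signal, each with 1 array in a genotype.

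Btg1 was brighter in every Tcf1-/- array on 2 of its 3 probe sets. On 1437455_a_at the Tcf1-/- arrays read 11.20, 11.84 and 10.99 and the Tcf1-/+ arrays 10.08, 10.62 and 10.32. The means were 11.34 ± 0.447 (SD, n = 3) and 10.34 ± 0.269 (SD, n = 3), a Btg1 difference of 1.00 with an interval of 0.27 to 1.73, or 2.00-fold, with a limma adjusted p of 0.642. On 1426083_a_at they read 10.69, 11.38 and 11.21 against 10.03, 10.65 and 9.48, a Btg1 difference of 1.04 with an interval of 0.14 to 1.93. The lowest Tcf1-/- and the highest Tcf1-/+ array were close on this probe set. The third, 1442018_at, differed by 0.15 with an interval of -1.18 to 1.48 and overlapped. On the brightest probe set the Btg1 difference was 0.75 without Tcf1-/- replicate 2. It was 1.00 and 0.80 within the arrays of low and of high Y-linked signal, each with 1 array in a genotype.

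Btg2, a direct p53 target and an immediate early gene, was less even. On 1416250_at it was at 9.21, 7.22 and 8.06 in Tcf1-/- and at 6.67, 7.44 and 7.17 in Tcf1-/+. Tcf1-/- replicates 1 and 3 were above every control and replicate 2 was not. The Btg2 difference was 1.07 with an interval of -0.23 to 2.37 (limma adjusted p = 0.832), and it was 0.31 on 1448272_at, where the arrays overlapped. Without Tcf1-/- replicate 1 the Btg2 difference on the brighter probe set was 0.55. It was 2.29 within the arrays of low Y-linked signal and 0.20 within those of high signal.

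**Figure D2:**
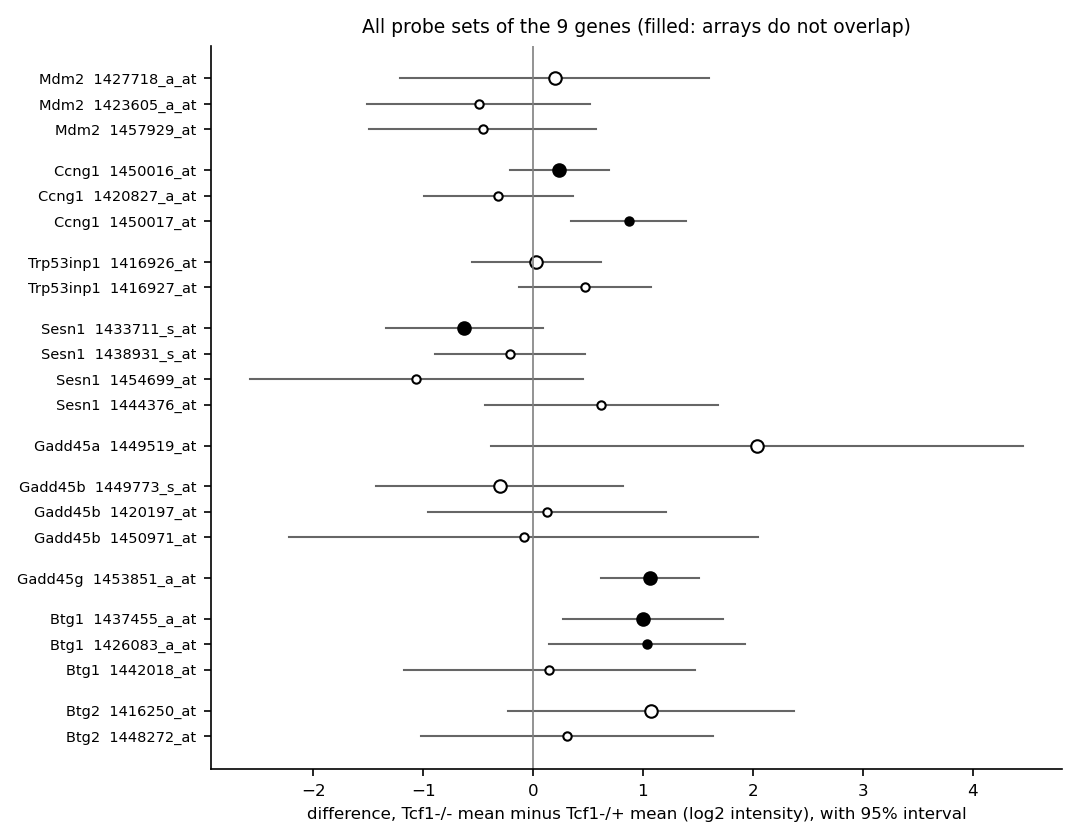
Difference in log2 level, Tcf1-/- minus Tcf1-/+ (x axis), with its 95% interval from limma for all 22 probe sets of the 9 genes (y axis), larger points marking the brightest probe set of a gene and filled points those whose arrays do not overlap. The intervals of 1 Gadd45g, 2 Btg1 and 1 Ccng1 probe set lie above 0, and no probe set passed the adjusted threshold.

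Of the other pathway genes, in 6 lists, 0 passed the adjusted limma threshold of 0.05, and 6.78% of all genes had an unadjusted p under 0.05. Of 20 growth-arrest and DNA repair targets of p53, all measured, 10 had higher and 10 lower means, with a median difference of 0.03, and 1 had an unadjusted limma p under 0.05. That gene was Fancc, a Fanconi anaemia repair gene, with a difference of 1.13 and no overlap, though its further 2 probe sets disagreed in sign. Plk3, a stress-response kinase, differed by 0.67 and Xpc, a nucleotide excision repair gene, by -0.63, both with overlap. Cdkn1a encodes p21, the main effector of p53-dependent cycle arrest. It was at 6.49, 8.54 and 6.46 in Tcf1-/- and at 6.10, 7.38 and 8.42 in Tcf1-/+, a difference of -0.13 with an interval of -2.10 to 1.83. The genotypes overlapped fully for Cdkn1a.

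Of the 14 listed apoptosis targets 13 were measured, 6 with higher and 7 with lower means and a median of -0.07. Bax was not analysed here. Apaf1, the scaffold of the apoptosome, was the 1 gene at an unadjusted limma p under 0.05. It was at 8.35, 7.65 and 7.98 in Tcf1-/- and at 8.74, 9.19 and 8.96 in Tcf1-/+, a difference of -0.97 with an interval of -1.61 to -0.33 and a limma adjusted p of 0.598. Its arrays did not overlap, and its other probe set had the same sign. Bbc3, which encodes the BH3-only protein PUMA, differed by 0.30 with an interval of -0.24 to 0.83. Its arrays were barely apart, the lowest Tcf1-/- array at 6.19 and the highest Tcf1-/+ array at 6.18. Aen, a p53-induced nuclease, differed by -0.32 with overlap, and 1 of its other 3 probe sets had the same sign.

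Among 16 regulators of p53 and damage kinases, 9 had higher and 7 lower means, with a median of 0.05. Atr, the kinase that answers replication stress, differed by -1.43 without overlap, and it was at 4.99, under background, on Tcf1-/- replicate 2. Sirt1, a deacetylase that acts on p53, differed by 0.69 and Hipk2, a p53 kinase, by -0.49. Of the other 7 Hipk2 probe sets 4 had the same sign. Mdm4, the partner of Mdm2 that restrains p53, was at 10.22, 11.81 and 10.52 in Tcf1-/- and at 10.19, 10.70 and 10.56 in Tcf1-/+, a difference of 0.37. For Mdm4, Tcf1-/- replicate 2 was the highest array and the other 5 lay close together. Cdkn2a, whose Arf product inhibits Mdm2, had both means under background, at 5.04 and 4.50, and no fold is given.

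The partners of GADD45, BTG and sestrin proteins had medians between -0.27 and -0.01. Of the GADD45 partners 9 of 11 were measured, 4 with higher and 5 with lower means. Mapk9, which encodes the JNK2 kinase, differed by 0.67 without overlap, but 0 of its other 2 probe sets had the same sign. Map3k4 differed by 0.60 and Mapk14, the p38 alpha kinase, by -0.45, both with overlap. Of the BTG and TOB family and CCR4-NOT genes 11 of 13 were measured, 5 with higher and 6 with lower means. Pabpc1, a poly(A)-binding protein, differed by -0.43 and Btg4 by 0.41, both without overlap, and Cnot3, a CCR4-NOT subunit, by -1.11 with overlap. Of the sestrin partners 10 of 11 were measured, 2 with higher and 8 with lower means. Prkaa1, a catalytic subunit of AMP-activated kinase, differed by 1.06 without overlap from a Tcf1-/+ mean under background, Nprl2 by -0.38 and Mios by -0.67.

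**Figure D3:**
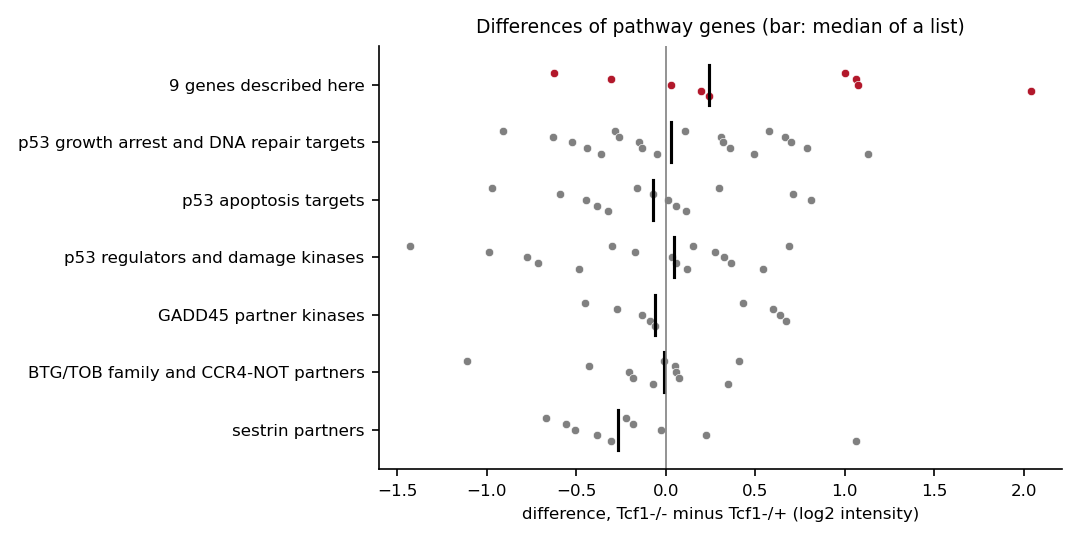
Difference in log2 level, Tcf1-/- minus Tcf1-/+ (x axis), for the brightest probe set of each gene in the 9 genes described (red) and in 6 pathway lists (grey), with the median of each list as a bar. The 9 genes have a median of 0.24 and the medians of the other lists lie between -0.27 and 0.05.

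Genes of other processes differed on the same arrays, and their part in the results on Btg1, Btg2 and the GADD45 genes was not tested. All 12 measured proliferation genes had lower means in Tcf1-/-, 4 of them without overlap, where 4.94% of all genes were lower without overlap. The Tcf1-/- arrays had mean levels of 9.71, 8.70 and 9.28 for this list and the Tcf1-/+ arrays 10.08, 9.44 and 10.24, so the list overlapped between genotypes. Of the markers of NK and innate lymphoid cells, 13 of 19 measured had higher means. The mean level of that list was 8.17 to 8.64 in Tcf1-/- and 6.92 to 7.47 in Tcf1-/+, without overlap. Of this list, 8 genes had higher means with an unadjusted limma p under 0.05, against 3.38% of all genes, and 7 were higher without overlap, against 7.22%, while Klrd1 was lower by both measures. Among the higher genes, differences were 4.50 for Cxcr6, from a Tcf1-/+ mean under background, 4.06 for Gzmb, 3.22 for Icos and 3.19 for Id2. They were 2.27 for Fcer1g and 2.36 for Il2rb, the latter with overlapping arrays. Prf1 differed by 0.19. The 6 genes with lower means included Klrd1 at -1.49, Nkg7 at -0.67 and Eomes at -0.75, the last with a Tcf1-/- mean under background. Of the defining NK markers, Ifng was under background on every array, and Tbx21 and Ncr1 had both means under it. Of the 13 immediate early genes 7 had higher and 6 lower means. Without overlap, 2 of them were higher, against 7.22% of all genes, Dusp1 at 1.06 and Klf6 at 0.88. Fosb, under background on every array, was the 1 lower without overlap, against 4.94%. At an unadjusted limma p under 0.05, 2 were higher, against 3.38% of all genes, and 0 lower. Egr1 differed by 1.75 and Fos by -0.85, both with overlap, so the list mean hides opposite differences. The immediate early list mean ran from 6.56 to 7.53 in Tcf1-/- and from 6.36 to 7.64 in Tcf1-/+. That list was highest on replicate 1 of each genotype, at 7.53 and 7.64, and lowest on replicate 3 of each. Btg2 was highest on Tcf1-/- replicate 1 among the Tcf1-/- arrays and lowest on replicate 1 among the Tcf1-/+ arrays, while Gadd45a was highest on Tcf1-/- replicate 3 and on Tcf1-/+ replicate 1.

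The list of sort and identity markers of early progenitors ran from 9.9997 to 10.06 in Tcf1-/- and from 10.14 to 10.29 in Tcf1-/+, without overlap. Of its 10 members 4 had higher means. Without overlap, 1 was higher, against 7.22% of all genes, and 3 were lower, against 4.94%. These were Thy1 at 2.48, and Flt3 at -1.53, Cd34 at -1.24 and Hes1 at -0.50, so the list mean hides opposite differences. The other marker lists overlapped between genotypes. The erythroid list had mean levels of 6.43 to 8.17 in Tcf1-/- and 5.67 to 7.998 in Tcf1-/+, with Hba-a1 under background on every array, and 7 of 10 members had higher means. Tcf1-/+ replicate 3 stood apart from the other controls, at 7.998 against 5.67 and 5.88, and the overlap of the erythroid list rests on it. The myeloid list ran from 7.17 to 8.21 and from 6.61 to 8.55, with Itgam and Cd14 under background throughout and 9 of 12 higher. Its overlap also rests on Tcf1-/+ replicate 3, at 8.55 against 6.79 and 6.61 on the other controls. The dendritic list ran from 6.90 to 8.13 and from 7.18 to 8.58, with 4 of 10 higher. In this list 2 genes were lower at an unadjusted limma p under 0.05, against 3.4% of all genes, and 0 higher. Cd74, at -1.61, was its 1 gene lower without overlap, against 4.94%. The B-lineage list ran from 5.66 to 5.86 and from 5.41 to 5.77, with Ms4a1 under background and 7 of 10 higher. Its genes higher without overlap were 2, Blk at 2.44 and Ms4a1, against 7.22% of all genes. Pou2af1, at -1.84 with a Tcf1-/- mean under background, was the 1 lower, against 4.94%. In this list 1 gene was higher and 1 lower at an unadjusted limma p under 0.05, against 3.38% and 3.4%. The stromal list ran from 5.57 to 5.72 and from 5.26 to 5.57, with Col3a1, Pdgfra and Cdh5 under background and 9 of 10 higher. The double-positive and mature T-cell list ran from 6.26 to 6.77 and from 5.93 to 6.70, with Cd8b1 under background and 5 of 8 higher. At an unadjusted limma p under 0.05, 2 were higher, against 3.38% of all genes, and 3 lower, against 3.4%. Cd4 differed by 2.93, Cd69 by 1.38 and Cd5 by -1.12, without overlap. Rag1 differed by -1.88 and Cd3e by -1.66, with overlap, so genes of opposite sign offset each other in the list mean.

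**Figure D4:**
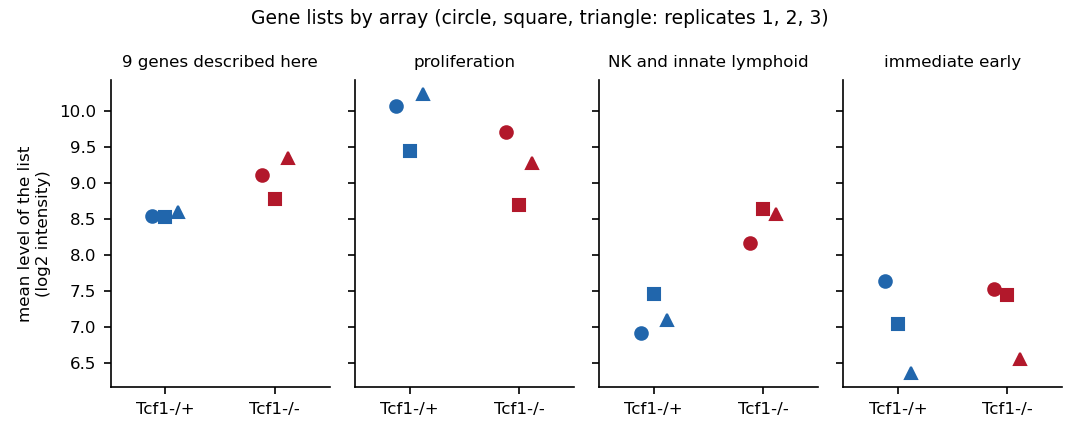
Mean log2 level (y axis) of the 9 genes described and of the proliferation, NK and innate lymphoid, and immediate early lists on each Tcf1-/+ (blue) and Tcf1-/- (red) array, with symbols for the replicate number. The 9 genes lie between 8.54 and 8.59 in Tcf1-/+ and between 8.79 and 9.35 in Tcf1-/-, while the immediate early list overlaps.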

How the data were processed

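RNA of sorted thymic progenitors was measured on 6 arrays, grouped by the sample titles. The values deposited by the authors are on a log2 scale, 1 for each probe set, as judged from their range of 2.15 to 14.8. The summarization and normalization are not given in the sources used here. They were used as deposited. Array medians lay between 5.80 and 5.87. The 64 control probe sets were left out. Symbols came from the platform annotation, and each gene took its brightest probe set on average. The test was limma (version 3.58.1, R version 4.3.3; lmFit, then eBayes; two-sided), Tcf1-/- against Tcf1-/+, adjusted by Benjamini-Hochberg over 45037 probe sets at a threshold of 0.05, and the fit was tested on simulated data. An exact permutation test was not used, since with 3 arrays a group its smallest p is 0.1. Arrays have no read depth, and their number limits the precision. Same-numbered arrays of the genotypes had correlations of deviations between 0.012 and 0.045, and the numbers were not taken as pairs. All members are named. Of each pathway list the text names up to 3 genes of smallest unadjusted p with a mean above background, and Cdkn1a, Bax, Mdm4 and Cdkn2a always, of which Bax had no probe set assigned here. The members, lists and tests were chosen with earlier results of these data known. Promoter windows are RefSeq's, on GRCm38.p6. Columns of values not used numbered 0.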

Additional observations from a re-analysis of the deposited data

How the results depend on the processing

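No alternative called a member probe set or any probe set at an adjusted p of 0.05. These were the replicate block, quantile normalization, a common array median, a filter on dim probe sets, array weights, a trended robust variance, the Y-linked level as a covariate, leaving out each array, and, chosen after seeing the data, the arrays of low or high Y-linked level alone. The count of member genes at an unadjusted limma p under 0.05, 2 in the main comparison, was 3 with the replicate block, 4 with array weights and between 1 and 4 when 1 array was left out. On the arrays of low and of high Y-linked level alone it was 2 and 0, but each of these fits has a group of 1 array and says nothing about stability. It was 4 without Tcf1-/- replicate 2 and 1 without Tcf1-/+ replicate 1. The median difference of the 9 genes was 0.24 with the replicate block and between 0.25 and 0.65 when 1 array was left out, with 0.65 without Tcf1-/- replicate 2. By the brightest probe set, or the mean of all probe sets, Gadd45a, Gadd45g, Btg1, Btg2, Sesn1 and Ccng1 kept their sign under all alternatives run. For Gadd45g, Btg1, Sesn1 and Ccng1 the arrays did not overlap on that brightest probe set. Leaving out or splitting arrays could therefore not turn their sign. Dimmer probe sets did turn. Without Tcf1-/+ replicate 3, Btg1 1442018_at turned to -0.32 and Btg2 1448272_at to -0.25. On the arrays of high Y-linked level these probe sets were at -1.02 and -0.24. On the arrays of low Y-linked level, Sesn1 1438931_s_at turned to 0.33 and Sesn1 1454699_at to 0.036. Mdm2 turned to -0.25 with the mean of all probe sets of a gene and to -0.18 on the arrays of low Y-linked level, and lay between -0.44 and 0.65 when 1 array was left out. Gadd45b turned to 0.44 on the arrays of high Y-linked level and lay between -0.56 and 0.11 when 1 array was left out. Trp53inp1 turned to -0.012 with array weights, to -0.066 with the Y-linked covariate and to -0.31 on the arrays of low Y-linked level, and lay between -0.068 and 0.22 when 1 array was left out. The cause of these turns was not tested. With the background at the highest bacterial control, 5.95, 21 of the 22 member probe sets had means above it.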
